A study of Mus musculus with 60 samples.

Results

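The comparison described here sets mouse embryonic stem cells (mESCs) that carry MCM2-2A, a histone-binding mutant of the replicative helicase subunit MCM2, against cells with wild-type MCM2, both grown in serum and LIF and taken before any retinoic acid (RA) was added. It holds 6 of the 60 RNA-seq libraries of the series, chosen by their labels alone: 3 of Ctrl MCM2-2A (genotype POLE4-dTAG, MCM2-2A clone 2) and 3 of Ctrl (genotype POLE4-dTAG), each treated with DMSO for 24 h. All 6 come from E14JU cells on gelatin and carry a degron tag on POLE4 that was not triggered, since the DMSO cultures received no dTAG. Each genotype is 1 clone, and POLE4 was tagged separately in wild-type and MCM2-2A cells, so the effect of the mutation and the history of a clone cannot be told apart. The 3 libraries of a line are biological replicates per the study's methods. A further 6 libraries, 3 of each line after 96 h of DMSO, form a second experiment with the same contrast and no shared libraries.

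MCM2 travels with the replication fork, binds parental histones H3 and H4 there and passes them to the lagging strand, while POLE3 and POLE4, subunits of the leading-strand polymerase, pass them to the leading strand. When MCM2 cannot bind histones, parental histones with their modifications go mainly to the leading strand. mESCs in serum and LIF are a mixed culture in which naive cells, cells primed for lineages and rare 2-cell-like cells (2CLCs) interconvert, so that the levels of lineage genes reflect the state of a culture.

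Total counts lay between 18555674 and 21649676 in the Ctrl libraries and between 13683171 and 42776956 in the Ctrl MCM2-2A libraries, and TMM factors between 0.972 and 1.02. Log2 CPM correlated at 0.991 or above between Ctrl libraries, at 0.989 or above between Ctrl MCM2-2A libraries and at 0.962 to 0.969 between lines (Pearson's r across genes, which are not independent replicates). The library of Ctrl MCM2-2A replicate 1 held 0.605% mitochondrial mRNA counts, against 1.15% to 1.31% in the other 5, for a reason that was not tested. Of 13 mitochondrial mRNAs 2 were lower in the mutant, mt-Co3 and mt-Nd6. With all groups of the 24 h experiment scaled together, mt-Co3 stood at 262.4, 259.6 and 267.4 CPM in Ctrl and 116.1, 113.1 and 205.8 CPM in the mutant. Values of mt-Nd6 were 125.2, 118.4 and 102 CPM in Ctrl and 52.2, 93.5 and 71.1 CPM in the mutant. Both were thus lower in each mutant library than in any Ctrl library. All 10 mESC markers were expressed in both lines, with a summed level of 4420 to 4512 CPM (read counts of a gene relative to the TMM-scaled library total) in Ctrl and 5276 to 5600 CPM in Ctrl MCM2-2A. The summed level of 10 fibroblast markers was 98.9 to 109.6 CPM in Ctrl and 97.5 to 117.2 CPM in Ctrl MCM2-2A, with Dcn, Postn and Lum below the expression filter. The 7 that were tested did not move together, as 5 were lower and 2 higher in the mutant. No marker of the 6 cell type lists was at 0 in all 6 libraries. In bulk RNA, fewer cells of a type and less RNA per cell cannot be told apart.

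Mcm2, the mutated gene itself, stood at 462, 466 and 478 CPM in Ctrl and at 318, 278 and 272 CPM in Ctrl MCM2-2A. Its log2 fold change was -0.70 ± 0.062 (SE, edgeR's quasi-likelihood test, adjusted p = 3.7e-06), so Mcm2 RNA was lower in each mutant library than in any Ctrl library. Pole4, the tagged gene, stood at 47.8, 51.6 and 48.9 CPM in Ctrl and at 31.1, 31.2 and 30.4 CPM in the mutant (log2 fold change -0.68 ± 0.059, adjusted p = 3e-06). Counts per gene cannot show the codons changed in MCM2-2A, so these levels do not check the genotype. Both genes lie on chromosome 6 and keep their difference at 96 h (-0.81 for Mcm2 and -0.95 for Pole4).

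Mcm2 was not alone in this. From Mcm2 (chr6, start 88883474, GRCm38) to the gene before Grip2, a stretch of 88.88 to 91.76 Mb, 26 genes passed the expression filter, and 23 of them were DE and lower in Ctrl MCM2-2A, 18 of the 20 protein-coding ones included. DE (differentially expressed) means an adjusted p below 0.01 and a log2 fold change over 0.58 in size throughout. The median log2 fold change of the 26 genes was -1.08, against 0.01 for the 20 tested genes before Mcm2, of which 0 were DE, and -0.02 for the 20 from Grip2 on, of which 3 were higher and 0 lower. The taurine transporter gene Slc6a6 near the far end fell from 203, 210 and 204 CPM to 72.8, 69.4 and 65 CPM. The nuclear pore gene Nup210 fell from 73.9, 87 and 83.2 CPM to 39.2, 44.9 and 41.7 CPM, and the DNA repair gene Xpc from 33.3, 29.8 and 28.6 CPM to 15.5, 15.8 and 14.6 CPM. Abtb1, which lies before Mcm2, was at 18.8 ± 0.755 CPM in Ctrl and 22.1 ± 1.67 CPM in Ctrl MCM2-2A (SD, n = 3 each) and did not pass the threshold. The lower block thus begins at Mcm2 itself. At 96 h, 23 of the 24 tested genes of the stretch were again lower in the mutant (median -0.96), 18 of them DE. The stretch was noticed in the values of these libraries, and DNA copy number was not measured, so fewer copies and less RNA per copy cannot be told apart.

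**Figure D1:**
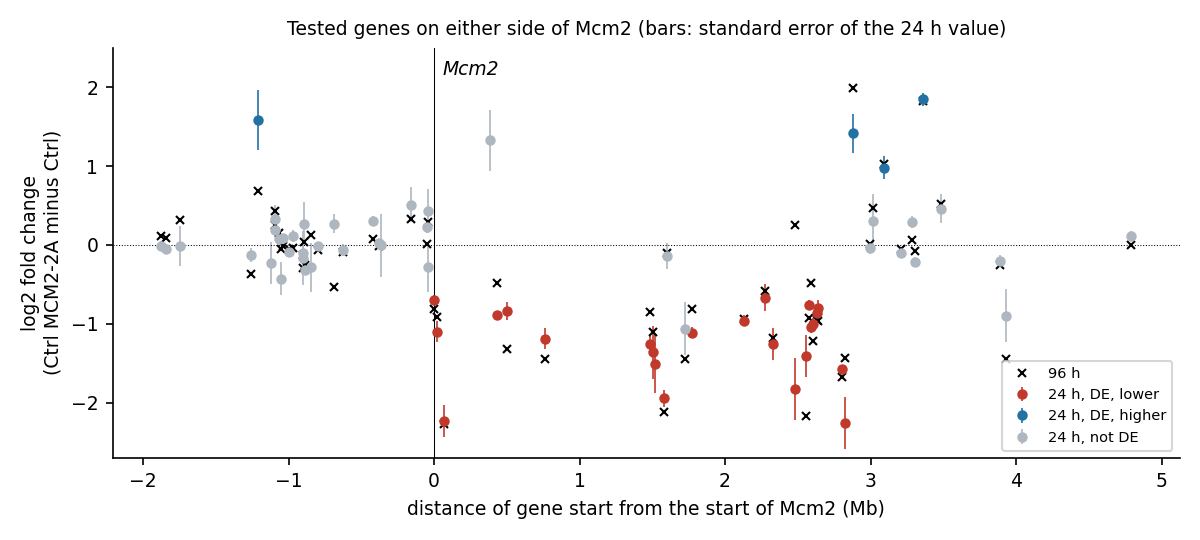
Log2 fold change (y axis) of the tested genes around Mcm2 against the distance of their start from that of Mcm2 in Mb (x axis), with standard errors at 24 h and the 96 h values as crosses. Values drop at Mcm2 to a median of -1.08 over 26 genes and return to about 0 from Grip2 on.

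Whole chromosomes differed as well. The median log2 fold change was -0.48 over 1391 tested genes of chromosome 11, of which 54 were higher and 468 lower, and 0.56 over 679 genes of chromosome 15, of which 283 were higher and 20 lower. On chromosome 11 the 5-Mb windows with at least 10 genes had medians between -0.33 and -0.74, and on chromosome 15 between 0.12 and 0.67, so both shifts ran along the chromosome. Chromosome 14 had a median of 0.23, but its shift lay in 1 part: the windows between 50 and 70 Mb had medians of 1.03, 1.01, 1.02 and 0.79, the window before them had 0.36, whereas those from 20 to 35 Mb lay between -0.02 and 0.04. Medians of the other autosomes lay between -0.09 and 0.06, and that of chromosome X was -0.17, with 29 genes higher and 98 lower of 574. At 96 h the medians were -0.51 for chromosome 11, 0.35 for chromosome 14 and 0.53 for chromosome 15. The 27 tested genes of the mitochondrial genome had a median of -0.37 at 24 h and 0.02 at 96 h.

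The largest chromosome shift was on Y. The median of the 10 tested Y genes was -3.09, and 8 of them were DE and lower, a list drawn up after the values were seen. Ddx3y, an RNA helicase, fell from 91.2, 85.6 and 85.8 CPM to 3.46, 2.67 and 3.25 CPM (log2 fold change -4.77 ± 0.085, adjusted p = 3.3e-11). Uty, a histone demethylase homolog, fell from 29.3, 32.4 and 29.4 CPM to 1.35, 1.88 and 1.61 CPM. Eif2s3y, a translation initiation factor, fell from 46.7, 52.3 and 53.6 CPM to 7.35, 7.95 and 7.81 CPM, so the remaining RNA was not the same share of the Ctrl level for each gene. Kdm5d, Zfy1, Uba1y and Usp9y were DE and lower too. The difference was present at 96 h (median -3.25 over 9 genes). Low but measurable counts were thus assigned to Y genes in the mutant cultures. The authors kept multiple alignments, so some of these counts may be reads shared with similar genes elsewhere, which was not tested. Fewer cells with a Y chromosome and less Y RNA per cell cannot be told apart.

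**Figure D2:**
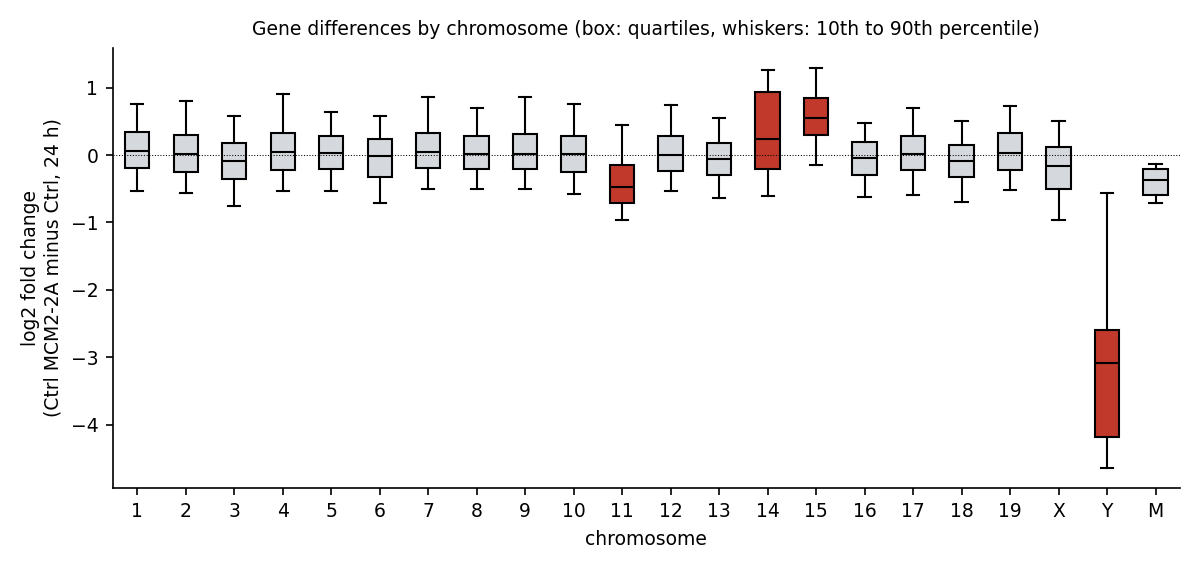
Log2 fold change at 24 h of all tested genes (y axis) by chromosome (x axis); boxes are quartiles, whiskers the 10th and 90th percentiles, and red marks chromosomes 11, 14, 15 and Y. Chromosome 11 sits at a median of -0.48, chromosome 15 at 0.56 and chromosome Y at -3.09. Chromosome 14 is at 0.23, M at -0.37 (27 genes) and X at -0.17, with the other boxes centred near 0.

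Over all 17972 tested features (genes and repeat subfamilies), 3430 were DE, 19.1% of them, with 1793 higher (9.98%) and 1637 lower (9.11%) in Ctrl MCM2-2A. Where a list below is given without a share, these shares of all features apply. Of the 2638 tested genes on chromosomes 11, 14 and 15, 1060 were DE, which is 40.2%. Of the 14432 tested genes on the other chromosomes, 2333 were DE, which is 16.2%, with 1258 higher (8.72%) and 1075 lower (7.45%). DE genes were thus not confined to the 3 chromosomes. Whether those elsewhere follow from the shifted chromosomes was not tested. Among the 2333, 1291 changed over 2-fold and 266 over 4-fold, and 2009 were also DE by DESeq2. The libraries of the lines did not overlap for 2323 of the 2333, where 56% of all tested features did not overlap. The median standard error of a log2 fold change was 0.11 among these 14432 genes, and p-values measure the spread between cultures of 1 clone per genotype. Chromosome Y and the stretch beside Mcm2 add few calls to this count, since 2302 remained DE without them.

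At 96 h, 2830 of 17623 features were DE (16.1%). Of the 2212 genes outside chromosomes 11, 14 and 15 that were DE at 24 h and tested at 96 h, 1994 (90.1%) had the same direction at 96 h and 1072 (48.5%) were DE in the same direction, which is 59.6% of the genes DE at 96 h. Of the 1214 higher genes 699 were higher and DE again, and of the 998 lower ones 373 were lower and DE again. Another 19 of the 2212 were DE at both times in opposite directions. The difference between the times was tested as an interaction over 12 libraries. It passed the adjusted p of 0.01 for 372 of 18678 features (1.99%), of which 313 had a more positive mutant difference at 96 h. With the replicate number as a block, 725 features passed, 504 of them more positive at 96 h. Among the 2212 genes, 191 passed, and 172 of these were lower in the mutant at 24 h. The genes that were lower at 24 h thus include a set whose difference was far smaller at 96 h. The 2212 genes were chosen by 24 h values that the interaction test reuses.

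**Figure D3:**
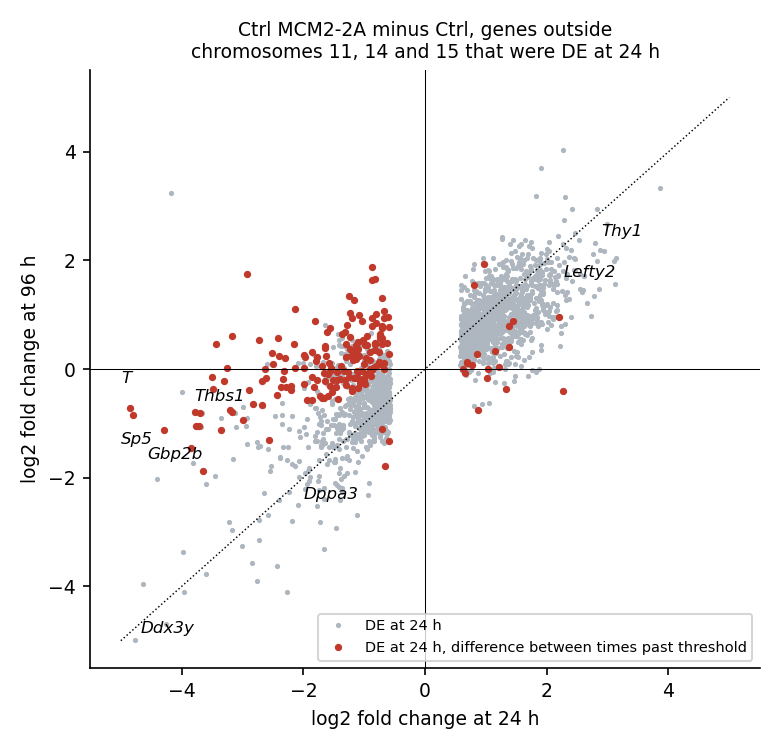
Log2 fold change of Ctrl MCM2-2A minus Ctrl at 24 h (x axis) and 96 h (y axis) for the 2212 genes outside chromosomes 11, 14 and 15 that were DE at 24 h, with the 191 whose difference between times passed the interaction test in red and equality as a dotted line. Ddx3y, Dppa3 and Thy1 lie near the line, whereas T, Sp5, Gbp2b and Thbs1 lie below -3.7 at 24 h and between -0.71 and -1.12 at 96 h.

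Among protein-coding genes outside the 3 chromosomes that reached 2 CPM in a line, did not overlap between libraries and were DE by DESeq2 too, the largest losses were, besides the Y genes Ddx3y, Kdm5d, Uty and Zfy1, Sprr2a2 and Sprr2a1, T, Sp5, Cav1, Gbp2b, Il15ra and Pcdh7. Sprr2a2 and Sprr2a1 are overlapping, nearly identical genes of the cornified envelope, and the same reads could be counted for both, so their log2 fold changes of -5.86 and -5.38 are uncertain. T encodes Brachyury, the transcription factor of the primitive streak. It stood at 38.4, 24.4 and 40.3 CPM in Ctrl and at 1.82, 0.868 and 0.921 CPM in the mutant (log2 fold change -4.86 ± 0.255, adjusted p = 9.2e-08). Sp5, a zinc finger factor and direct target of Wnt signaling, stood at 17, 15.4 and 14.6 CPM in Ctrl and at 0.718, 0.578 and 0.461 CPM in Ctrl MCM2-2A (-4.79 ± 0.17, adjusted p = 7.2e-09). The same gap was seen in the dTAG-treated libraries of both lines in this experiment, which are separate cultures: T was at 29.0 ± 7.72 CPM in dPOLE4 and 1.19 ± 0.2 CPM in dPOLE4 MCM2-2A (SD, n = 3 each), and Sp5 at 14.4 ± 2.91 CPM and 0.591 ± 0.211 CPM. At 96 h it was not: T was at 4.95 ± 1.36 CPM in Ctrl and 2.97 ± 0.408 CPM in the mutant, and its log2 fold change of -0.71 was not DE. The difference of T between the times was 4.12 ± 0.435 (adjusted p = 2.1e-05) and that of Sp5 3.92 ± 0.391 (adjusted p = 1.3e-05). The level in Ctrl was itself lower at 96 h than the 34.4 CPM of 24 h, and that in the mutant higher than the 1.202 CPM of 24 h, across experiments that were normalized separately.

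By the same rule the 12 largest gains were Xkr7, Rph3a, Rhobtb1, Atp2c2, S100a14, Thy1, Atp2b2, Tspan8, Klk13, Casp14, Ndufa4l2 and Slc25a34. Their mean level in Ctrl lay between 0.0992 and 3.596 CPM. Xkr7, of the XK family of membrane proteins, stood at 0.107, 0 and 0.19 CPM in Ctrl and at 2.49, 1.81 and 2.16 CPM in the mutant (log2 fold change 4.35 ± 0.45, adjusted p = 7.8e-06). Rph3a, an effector of the vesicle GTPase Rab3, stood at 0.376, 0.214 and 0.76 CPM in Ctrl and at 4.31, 4.19 and 3.8 CPM in Ctrl MCM2-2A. Thy1, a surface antigen of thymocytes, neurons and fibroblasts, was the most abundant of the 12. It rose from 3.82, 3.65 and 3.33 CPM to 29.8, 23.4 and 21.7 CPM (2.79 ± 0.14, adjusted p = 8e-08), and was again higher at 96 h (2.33). Of the 12 genes, 11 were tested at 96 h and all 11 were higher and DE there, with log2 fold changes between 1.35 and 2.95. Among the 8 non-Y genes with the largest losses, 5 were tested at 96 h and 1, Gbp2b, was DE. Cav1 (-2.02) was DE as well with the replicate block (adjusted p = 0.00249 by edgeR).

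**Figure D4:**
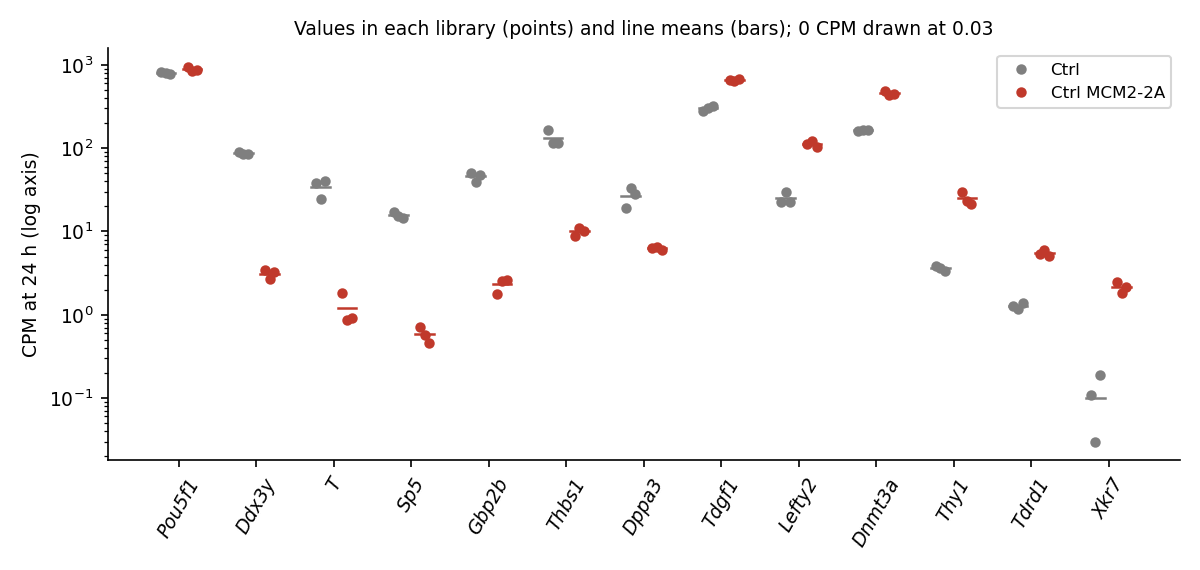
CPM at 24 h on a log axis (y axis) of 13 genes (x axis) in each of the 3 Ctrl libraries (gray) and 3 Ctrl MCM2-2A libraries (red), with line means as bars. The libraries of the lines do not overlap for any of the 13 genes, with Pou5f1 the closest (780 to 825 CPM in Ctrl, 842 to 958 CPM in Ctrl MCM2-2A).

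On the shifted chromosomes the same rule named Igfbp3 and Wnt3 as the largest losses on chromosome 11 and Fgf11 and Lgals3bp as the largest gains. Igfbp3, a binding protein of insulin-like growth factors, fell from 142, 125 and 140 CPM to 14.6, 14.1 and 15.5 CPM, a log2 fold change of -3.19 against the chromosome median of -0.48. On chromosome 14 they were Wnt5a and Nefm (-3.06 and -2.24) and Slc7a8 and Ltb4r2 (2.51 and 2.45). On chromosome 15 they were Ccn4 and Ghr (-2.92 and -2.81) and Vdr and Krt79 (2.98 and 2.96). The losses of Ccn4 on chromosome 15 and of Nefm on chromosome 14 lie in windows whose medians were above 0 (0.31 and 0.79), that of Wnt5a in one near 0 (-0.02) and that of Ghr in one of 9 genes with a median of -0.47. At 96 h the 6 losses were smaller or absent, at -0.72 for Igfbp3, 0.08 for Wnt3, -1.02 for Wnt5a (not DE, but DE with the replicate number as a block, adjusted p = 0.00433 by edgeR), 0.32 for Nefm, -0.88 for Ccn4 and 0.04 for Ghr, of which that of Igfbp3 was DE without the block. The 6 gains were again DE, with log2 fold changes between 1.48 and 2.96.

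Genes of the pluripotent state were in part DE. Pou5f1, which encodes OCT4, stood at 825, 793 and 780 CPM in Ctrl and at 958, 842 and 862 CPM in Ctrl MCM2-2A, and neither Pou5f1, Sox2, Nanog, Zfp42, Esrrb nor Klf4 was DE. Of 14 core pluripotency genes 4 were higher and 0 lower, namely Tdgf1 (1.13), Tdh (1.03, on the raised part of chromosome 14), Utf1 (0.82) and Dppa5a (0.61), with a median of 0.19 where that of all features was -0.02 and 9.98% of them were higher. Of 15 naive genes 1 was higher, Tbx3 (0.63), and 1 lower. The latter was Dppa3, a maternal factor that protects DNA methylation in the zygote, at 18.9, 33.4 and 28 CPM in Ctrl and 6.38, 6.51 and 6.06 CPM in Ctrl MCM2-2A (-2.10 ± 0.18, adjusted p = 2.4e-06). It was lower at 96 h as well (-2.50). Among 9 tested formative genes, which mark the step after the naive state, Krt18 (-1.34), Fgf5 (-0.88) and Sox4 (-0.62) were lower and Otx2 (1.29, chromosome 14) higher. Fgf5 turned at 96 h, where it was DE and higher (1.64), while Krt18 (0.315) and Otx2 (0.383) were not DE. The list's median was -0.415 at 24 h and 0.315 at 96 h, with 3 members higher and 2 lower at 96 h. At 24 h the following held. Lef1 (-0.44), Zic2 (-0.35) and Zic5 (-0.41) stayed under the fold threshold at that time.

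Among 12 tested 2-cell-like features 5 were higher and 0 lower, with a median of 1.30, where 9.98% of all features were higher. The 5 were Tdpoz4 (2.11), Usp17le (1.71), Zscan4c (1.34), Zscan4f (1.31) and Zscan4e (1.29). Tdpoz4 was scarce, with means of 0.316 CPM in Ctrl and 1.21 CPM in Ctrl MCM2-2A when all groups of the 24 h experiment were scaled together. Zscan4c, of a family that is transcribed in 2CLCs in bursts, stood at 7.26, 2.47 and 4.61 CPM in Ctrl and at 13.2, 8.96 and 13.2 CPM in Ctrl MCM2-2A. Ctrl libraries differed almost 3-fold among themselves in this gene, the libraries of the lines overlapped for Zscan4e and Zscan4f, and none of the 3 Zscan4 genes was DE by DESeq2. The Zscan4 copies are nearly identical and can share reads. The repeats of the same program, MERVL-int (0.16) and MT2_Mm (0.32), did not pass the threshold. At 96 h the list's median was 0.23, with 1 member higher. Of 7 Pramel family genes, Pramel6 (-1.68), Pramef17 (-1.46) and Pramel7 (-0.84) were lower and Pramef25 (2.17) higher.

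**Figure D5:**
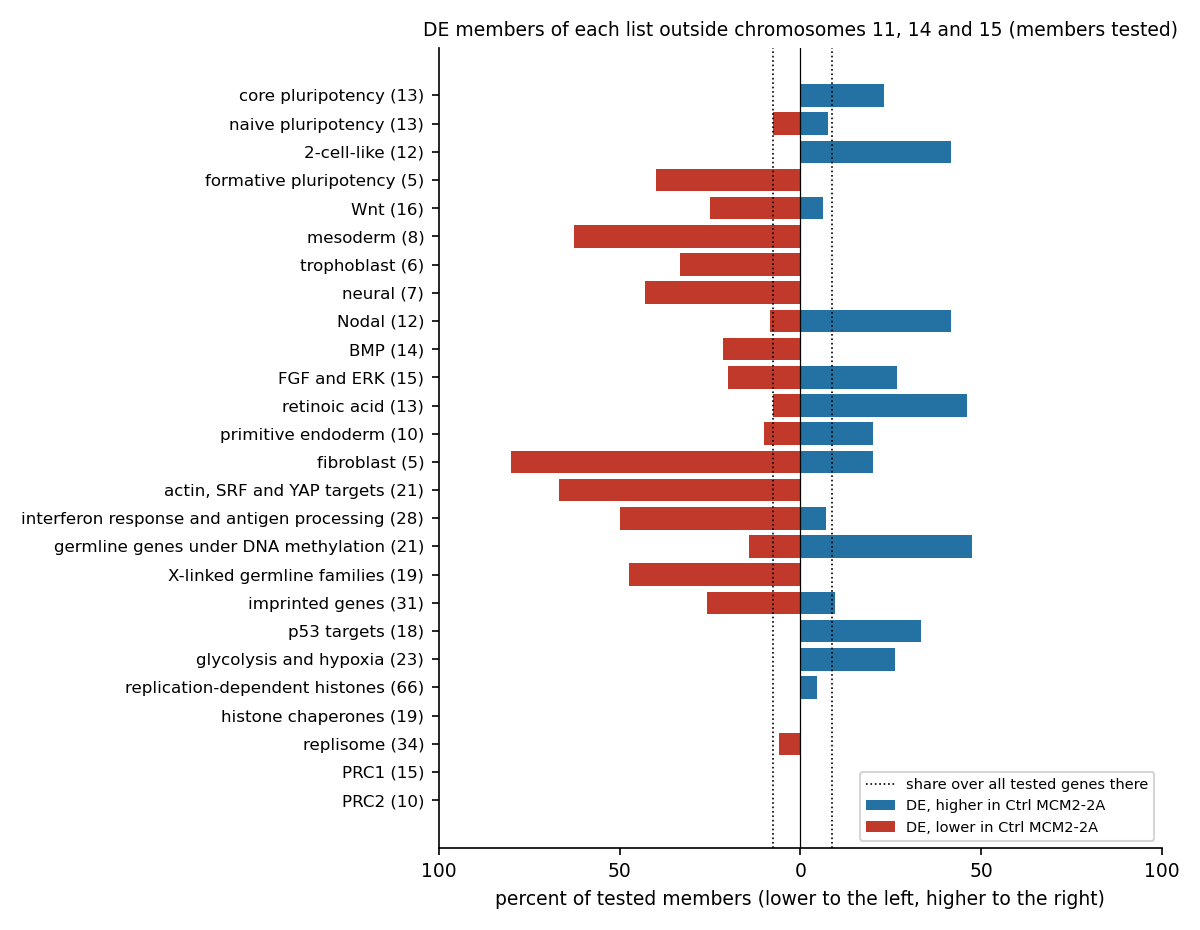
Percent of tested members outside chromosomes 11, 14 and 15 that were DE and higher (blue, right) or lower (red, left) in Ctrl MCM2-2A at 24 h for 26 lists, with the number tested in parentheses and dotted lines at the shares of all tested genes there, 8.72% and 7.45%. Mesoderm, fibroblast, actin, interferon and X-linked germline lists extend to the left, and Nodal, retinoic acid and germline lists to the right.

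Signaling genes moved in both directions. In the Wnt list 9 of 23 tested genes were lower and 2 higher, where 9.11% of all features were lower and 9.98% higher. Of the lower members, 4 lie outside chromosomes 11, 14 and 15. Besides Sp5, the largest losses were the ligands Wnt3 (-2.88, chromosome 11) and Wnt7a (-1.83, which lies in the stretch beside Mcm2), and the gains were Lgr5 (1.45) and Wnt7b (1.24, chromosome 15). Wnt3, the ligand that starts the primitive streak, fell from 18.4, 14.6 and 15.2 CPM to 2.28, 1.95 and 2.21 CPM. Axin2, a negative feedback target of the pathway, was lower by -0.74 on chromosome 11. The list's median was -0.01, so most members did not follow Sp5. At 96 h 5 members were higher and 2 lower, and Wnt7a was at 0.25 and not DE. The promoter of Sp5 (RefSeq, GRCm38.p6, 250 bases before to 50 after the gene start) is shown because it holds the letters CTTTGAT of a TCF motif, in capitals, which 2.4% of the promoters of 11520 tested genes hold on either strand and 1 of 17 promoters of the Wnt list. That 1 promoter is the one of Sp5 itself.
Sp5, chr2:70474673-70474972, plus strand: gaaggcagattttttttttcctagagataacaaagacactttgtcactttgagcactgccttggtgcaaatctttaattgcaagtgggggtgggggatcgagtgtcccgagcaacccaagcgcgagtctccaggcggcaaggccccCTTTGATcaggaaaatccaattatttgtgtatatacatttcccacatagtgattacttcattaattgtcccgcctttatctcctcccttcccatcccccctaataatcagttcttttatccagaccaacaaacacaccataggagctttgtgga

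Mesoderm genes were among those lower at 24 h, when 9.11% of all features were lower. Of 9 tested members 6 were lower and 0 higher, with a median of -1.10: T, Fgf8 (-3.12), Evx1 (-1.51), Mixl1 (-1.32), Hand1 (-1.09, chromosome 11) and Kdr (-0.81). Fgf8, a growth factor of the streak, stood at 5.32, 4.08 and 4.99 CPM in Ctrl and at 0.676, 0.578 and 0.461 CPM in Ctrl MCM2-2A. At 96 h Fgf8 was at -0.82 and Evx1 at -0.12, neither DE. The mesoderm markers summed to 38.4 to 56.6 CPM in Ctrl and 11.2 to 13.2 CPM in Ctrl MCM2-2A. Trophoblast genes showed 6 lower and 1 higher of 11, Krt19 (-2.22), Gata3 (-2.18) and Cdx2 (-1.34) being the largest losses (4 of the 6, Krt19 included, lie on chromosomes 11 and 15), and neural genes 3 lower and 0 higher of 7, with Zfp521 (-1.43), Nes (-1.33) and Pax6 (-1.28). The trophoblast markers summed to 39.5 to 44.8 CPM in Ctrl and 19.2 to 23.1 CPM in Ctrl MCM2-2A. The neural markers summed to 98.95 to 110.1 CPM in Ctrl and 101.8 to 115 CPM in Ctrl MCM2-2A, so their sum was not lower. The medians at 96 h were -0.12 for mesoderm, 0.13 for trophoblast and -0.04 for neural genes. Gata3 (-1.75) and Pax6 (-1.92) were DE and lower at 96 h, whereas Mixl1, Hand1, Krt19 and Nes were not.

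Nodal and RA pathway genes included more gains than losses. Of 14 tested Nodal pathway genes 7 were higher and 1 lower, with a median of 0.61 at 24 h and 0.63 at 96 h. Outside chromosomes 11, 14 and 15, 5 of 12 were higher and 1 lower at 24 h, with a median of 0.41. Of all tested genes there, 8.72% were higher. Lefty2 and Lefty1, secreted inhibitors that Nodal induces, rose from 22.5, 29.5 and 22.8 CPM to 113, 122 and 102 CPM (2.17 ± 0.1, adjusted p = 4.9e-08) and from 24.2, 36.3 and 25.5 CPM to 97, 84.2 and 87.4 CPM (1.65 ± 0.12, adjusted p = 1.05e-06). The ligand Nodal (0.81) and its coreceptor Tdgf1 (1.13) rose with them, and the receptor Acvr2a was lower (-0.60). Tdgf1 is also counted in the core pluripotency list. Of 15 tested RA pathway genes 7 were higher and 1 lower before any RA was given, with a median of 0.41. Outside the 3 chromosomes 6 of 13 were higher and 1 lower. Stra6, a retinol transporter (2.16), the receptor Rxrg (2.08) and Dhrs3, which reduces retinal (1.38), had the largest gains, and the RA-degrading enzyme Cyp26a1 was lower (-1.55, and -0.17 at 96 h). Rxrg was scarce, with means of 0.389 CPM in Ctrl and 1.64 CPM in Ctrl MCM2-2A when all groups of the 24 h experiment were scaled together. Rarg, on chromosome 15, rose from 172, 170 and 172 CPM to 436, 414 and 395 CPM. At 96 h 8 RA pathway genes were higher and 1 lower.

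FGF and LIF genes moved in both directions. Of 18 FGF and ERK genes 4 were higher, with the receptor Fgfr4 (1.92) and Fgf15 (1.38) the largest, and 4 lower, with Fgf8, Dusp4 (-0.99) and Fgf5 the largest. Of 16 BMP genes 0 were higher and 3 lower, namely Msx1 (-1.56), Id2 (-1.38) and Bmpr2 (-0.65), a share near the 19.1% of all features. In the LIF list Lif (-0.83, chromosome 11) and its coreceptor Il6st (-0.83) were lower and the kinase gene Pim3 (0.79, chromosome 15) higher. Il6st was lower at 96 h too (-0.77).

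Primitive endoderm genes were higher in 5 cases and lower in 1 of 15, but 3 of the 5 lie on chromosomes 14 and 15. Gata4 (2.44) and Sox7 (2.05) are on chromosome 14 and Dab2 (1.07) is on chromosome 15, while Amn (2.06) and Gata6 (1.32) are elsewhere and Lama1 (-0.74) was lower. Gata6, a founding factor of this lineage, stood at 4.35, 1.72 and 2.28 CPM in Ctrl and 6.8, 6.22 and 7.41 CPM in Ctrl MCM2-2A. The markers of the lineage summed to 21.5 to 50.3 CPM in Ctrl and 49.45 to 68.7 CPM in Ctrl MCM2-2A, so the ranges overlapped.

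Genes of contractile and spread cells were lower at 24 h. Of 7 fibroblast markers that passed the filter 5 were lower, with Acta2 (-3.81), Col3a1 (-2.98) and Col1a2 (-2.36) the largest losses, and Thy1 and Fbln1 (1.33, chromosome 15) were higher. At 96 h 5 fibroblast markers were tested, of which 2 were higher and 0 lower. A list of actin, SRF and YAP target genes was drawn up after these values were seen and is a description. Of its 23 tested members 15 were lower and 0 higher, with a median of -1.36. Thbs1, which encodes the matrix protein thrombospondin, stood at 165, 115 and 114 CPM in Ctrl and 8.83, 11.1 and 10.2 CPM in Ctrl MCM2-2A (-3.72 ± 0.15, adjusted p = 1.5e-08). Tagln, an actin-binding protein of smooth muscle, stood at 106, 80.4 and 78 CPM and at 11, 12.2 and 12.3 CPM. Ccn1, a secreted YAP target, stood at 119, 83.7 and 90.8 CPM and at 15.2, 16.3 and 16.6 CPM. In the dTAG-treated libraries Thbs1 was at 141.5 ± 33.2 CPM in dPOLE4 and 12.9 ± 2.56 CPM in dPOLE4 MCM2-2A (SD, n = 3 each). At 96 h 3 members of this list were higher, 0 were lower and the median was -0.16, with Ccn1 at 48.9 ± 11.6 CPM in Ctrl and 43.7 ± 2.28 CPM in Ctrl MCM2-2A. A CArG box, the motif of SRF, is in 5 of the 19 promoters of this list that have a sequence, in 3 of the 12 of its lower members and in 1.24% of all tested promoters. Of the adhesion genes, Zeb2 (-2.58), Cdh2 (-1.94, and -0.57 at 96 h), Zeb1 (-0.82), Vim (-0.71) and Itgb1 (-0.59) were lower and Itgb4 (0.87, chromosome 11) higher out of 17.

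Interferon-inducible genes were lower in the mutant at 24 h as well, again in a list drawn up after the values were seen. Of 34 tested members 17 were lower and 2 higher, with a median of -0.60. Gbp2b and Gbp2 encode guanylate-binding proteins, GTPases of the defense against intracellular pathogens. Gbp2b stood at 50.6, 39.6 and 47.8 CPM in Ctrl and 1.77, 2.53 and 2.62 CPM in Ctrl MCM2-2A (-4.29 ± 0.14, adjusted p = 3.6e-09), and Gbp2 at 46.6, 40.9 and 46.8 CPM and 3.46, 3.33 and 3.04 CPM. Iigp1, an interferon-induced GTPase, had the largest loss of the list (-5.91 ± 0.696) from a mean of 1.07 CPM in Ctrl. Psmb8, a catalytic subunit of the immunoproteasome, fell from 7.63, 6.59 and 7.22 CPM to 0.803, 0.795 and 0.645 CPM. The transcription factor Irf2 (-3.87), B2m (-1.32) and Gbp3 (-3.77) were lower, and Nlrc5 (1.57), the transactivator of class I genes, and Tap1 (0.79) were higher. At 96 h 7 members were lower and 4 higher (median -0.20), with Gbp2b at -1.12 and Psmb8 at -0.22. The promoters of the neighbours Gbp2b and Gbp2 are shown with the core of an interferon response motif in capitals: GAAA, 2 free bases and GAAA, searched on both strands. It is in the promoters of 10 of the 14 lower members that have a sequence and of 13 of all 28 tested members, where 2.75% of all tested promoters hold it.
Gbp2b, chr3:142594597-142594896, plus strand: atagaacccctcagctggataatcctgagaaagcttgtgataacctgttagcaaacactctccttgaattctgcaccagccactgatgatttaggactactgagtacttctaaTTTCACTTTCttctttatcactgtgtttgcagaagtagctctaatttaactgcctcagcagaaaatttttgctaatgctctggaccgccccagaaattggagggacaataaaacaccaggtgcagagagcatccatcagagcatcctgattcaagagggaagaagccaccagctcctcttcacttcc
Gbp2, chr3:142620413-142620712, plus strand: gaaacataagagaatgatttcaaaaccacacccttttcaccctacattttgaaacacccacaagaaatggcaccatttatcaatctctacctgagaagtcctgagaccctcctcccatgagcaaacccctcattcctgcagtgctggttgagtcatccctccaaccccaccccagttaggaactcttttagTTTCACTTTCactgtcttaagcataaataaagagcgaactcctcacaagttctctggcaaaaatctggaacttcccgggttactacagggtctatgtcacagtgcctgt

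Germline genes moved in both directions, where 9.98% of all features were higher and 9.11% lower. Of 24 tested germline genes that DNA methylation silences in somatic cells, 12 were higher and 3 lower, with a median of 0.58 at 24 h and 0.61 at 96 h. Tdrd1, a Tudor protein of the piRNA pathway (2.06), Taf7l, a germ cell TFIID subunit on chromosome X (1.96), and Dmrtb1, a spermatogonial factor (1.90), had the largest gains. Tdrd1 stood at 1.29, 1.18 and 1.38 CPM in Ctrl and 5.41, 5.93 and 5.09 CPM in Ctrl MCM2-2A, without overlap. Stk31 (-0.86), Hormad1 (-0.75) and Tuba3a (-0.75) were lower. The X-linked Rhox, Xlr and Mage families showed 9 lower and 0 higher of 19, with Magea4 (-3.97), Xlr4b (-3.22) and Rhox2a (-2.85) the largest losses and a median of -0.98 where that of chromosome X was -0.17. Members of these families are close copies and can share reads. At 96 h 10 of 17 were lower. The promoters of Tdrd1 and Taf7l are shown with CACGTG, an E-box that MAX dimers bind and that reads the same on both strands, in capitals: 7 of the 10 higher germline genes with a sequence, 2 of the 3 lower ones and 11 of all 21 hold it, against 10.1% of all tested promoters.
Tdrd1, chr19:56825959-56826258, plus strand: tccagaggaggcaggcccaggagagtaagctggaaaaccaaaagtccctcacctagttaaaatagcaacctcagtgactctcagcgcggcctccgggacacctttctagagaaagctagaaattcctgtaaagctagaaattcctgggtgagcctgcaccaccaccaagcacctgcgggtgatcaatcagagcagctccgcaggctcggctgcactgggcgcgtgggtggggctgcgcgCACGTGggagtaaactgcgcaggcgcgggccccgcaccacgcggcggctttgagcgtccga
Taf7l, chrX:134476441-134476740, minus strand: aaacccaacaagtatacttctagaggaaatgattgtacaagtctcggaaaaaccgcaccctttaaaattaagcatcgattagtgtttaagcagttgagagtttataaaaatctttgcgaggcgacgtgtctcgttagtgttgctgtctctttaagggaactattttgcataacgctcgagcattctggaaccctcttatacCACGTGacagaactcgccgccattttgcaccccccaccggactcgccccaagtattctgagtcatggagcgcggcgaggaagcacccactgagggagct

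Over all genes outside the 3 chromosomes, the number of CpG per promoter differed between DE genes and the rest. The median was 14 CpG in 911 higher genes, 16 in 773 lower genes and 21 in 8165 genes that were not DE. The ETS motif CCGGAA was found in 14.6%, 18.4% and 29.2% of these promoters, TATAAA in 9.88%, 10.9% and 6.47%, and CACGTG in 8.23%, 8.15% and 10.4%, on either strand. These shares are descriptions, and no match was tested as a site.

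Of the DNA methylation enzymes, Dnmt3a, a de novo methyltransferase, rose from 160, 166 and 167 CPM to 490, 437 and 450 CPM (1.48 ± 0.056, adjusted p = 1e-08) and was higher at 96 h (0.99). Uhrf1, which brings the maintenance methyltransferase to replicated DNA, rose from 461, 450 and 455 CPM to 757, 728 and 739 CPM (0.70), and was at 0.43 and not DE at 96 h. Tet2, which oxidizes 5-methylcytosine, was lower (-0.62), and Dnmt1 (0.19), Dnmt3b (0.05) and Dnmt3l (0.45) were not DE. Of 35 imprinted genes 4 were higher and 10 lower. Plagl1, a zinc finger factor (-2.56), Airn (-2.49) and Grb10 (-1.64, chromosome 11) had the largest losses (Plagl1 at -1.31 and Grb10 at -1.01 at 96 h, both DE), and Phlda2 (1.10) and Igf2 (1.05) the largest gains. The Airn transcript overlaps Igf2r, which was not DE (0.11).

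Genes for the histone machinery differed little at 24 h beyond the shifted chromosomes. Of all features 19.1% were DE at that time. Of 23 histone chaperone genes 1 was DE, the FACT subunit Supt16 (1.06), and of 37 replisome genes 3, namely Mcm2, Pole4 and Wdhd1 (1.31). Supt16 and Wdhd1 lie on chromosome 14. Replication-dependent histone genes were higher in 3 cases and lower in 0 of 68, with a median of -0.09, the 3 being the testis histones Hist1h2ba (1.15) and Hist1h2aa (0.85) and Hist2h2ab (0.80). At 96 h the median of these 68 genes was -0.334, with 2 higher and 6 lower. Of the replacement histones, H3f3b (-0.78, chromosome 11) was lower, and H3f3a (0.22) and Cenpa (0.04) were not DE. In PRC2 the subunit Suz12 was lower, from 480, 471 and 474 CPM to 227, 236 and 246 CPM (-1.01, chromosome 11), and Ezh2 (0.28) was not DE. In PRC1 the subunit Cbx7 was higher (0.64, chromosome 15). Of the H3K9 methylation list Mphosph8 (1.40, chromosome 14) was higher and Morc2a (-0.58, chromosome 11) lower.

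Repeat subfamilies were seldom DE. Of 880 tested 32 were DE, which is 3.64%, with 7 higher and 25 lower. The largest losses were MLT1J1-int (-3.34), ETnERV3-int (-2.58) and IAPEy-int (-1.84). ETnERV3-int, an internal sequence of an endogenous retrovirus, fell from 196, 210 and 200 CPM to 19.6, 37 and 44.2 CPM, and IAPEy-int from 4.35, 4.5 and 5.23 CPM to 1.18, 1.23 and 1.43 CPM. RLTR1B-int, one of the abundant ones, fell from 941, 835 and 881 CPM to 278, 295 and 323 CPM (-1.57), a difference that was -0.29 and not DE at 96 h. The largest gains were RLTR1F_Mm (2.31), RLTR31M (1.18) and MMERGLN-int (0.95), the last from 230, 241 and 240 CPM to 453, 445 and 480 CPM and again higher at 96 h (1.36). RLTR1F_Mm and RLTR31M were scarce. With all groups of the 24 h experiment scaled together, RLTR1F_Mm had means of 0.125 CPM in Ctrl and 0.607 CPM in Ctrl MCM2-2A. Those of RLTR31M were 1.04 CPM and 2.41 CPM. Of 21 IAP subfamilies 3 were lower and 0 higher, and of 6 young LINE-1 subfamilies 0 were DE (3 at an unadjusted p under 0.05 in edgeR, 0 called by DESeq2). A subfamily sums many copies, and these counts do not tell copies on chromosomes 11, 14, 15 and Y from the others.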

How the data were processed

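RNA was depleted of rRNA, made into strand-specific libraries and sequenced by the authors as paired-end reads. They trimmed with cutadapt 4.2, aligned with STAR to mm10 keeping multiple alignments, and counted with TEcount on GENCODE genes and repeat subfamilies. The deposited values are raw counts for 55487 genes and 1146 repeat subfamilies. They hold 1 column of whole-number counts per library. Positions were taken from a GENCODE annotation of GRCm38, which matched 55227 genes. Libraries were grouped by their labels.

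Features of the 6 libraries had to pass filterByExpr at its count minimum of 10 and total minimum of 15. They were scaled with TMM and tested with edgeR's quasi-likelihood test (edgeR 4.0.16, R 4.3.3), with Benjamini-Hochberg adjustment over all features; the study's methods name DESeq2, which was an alternative (1.42.0). DE follows the study's thresholds. Genes on chromosomes 11, 14 and 15 were counted apart. The 96 h libraries were fitted alone and, for the difference between times, together with the 24 h ones. In simulated counts for the 24 h comparison, with 17972 features, edgeR recovered 83.5% of 91 features changed by 1 on the log2 scale and 98.2% of 109 changed by 2, with 5 false calls. All changed features of the simulation had a mean above 1 CPM, so recovery at lower levels was not tested. They were far fewer than the DE features of the data, and no chromosome shift was simulated. Standard errors hold counting error and the variation between cultures.

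Named were Mcm2 and Pole4, the 12 protein-coding genes per direction with the largest change outside the 3 chromosomes (no overlap of libraries, at least 2 CPM, DE also by DESeq2, no predicted symbol), 2 per direction on each of the 3, DE members of lists (3 per direction where over 6 were DE), 3 repeats per direction and those the study names. Other genes, the chromosome 6 stretch, the interferon, actin and Y lists, and the promoters and motifs CTTTGAT, CArG and that of the interferon response were named after values were seen, the promoters in place of 4 that the rule for named genes had planned. The members and lists were chosen with earlier results of these data known. Deviations of same-numbered libraries correlated at 0.128, 0.129 and 0.068 at 24 h, so their numbers were not taken as pairs, and at 0.203, 0.212 and 0.113 at 96 h, where they meet the bar for pairs. The 96 h values and the difference between times are from fits without the block, as designed. The blocked value is given for some features whose 96 h call it changes, and for the difference between times mostly as counts. Alternatives were other scalings, filters, tools, cutoffs, a replicate block, and each library left out. Some single-gene results are not reported here.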

Additional observations from a re-analysis of the deposited data

Results flagged for a closer look

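Of 253 named features with a test, 34 had a mutant difference at 96 h that differed from that at 24 h (edgeR's quasi-likelihood interaction test, adjusted p below 0.01). Of all features tested, 1.99% passed. Many named features were chosen for large differences at 24 h, and the test reuses the 24 h libraries. Neither the share nor the signs are thus independent of that choice. The values below are the log2 fold change at 96 h minus that at 24 h, positive in 33 cases and negative in 1. They were 4.12 for T, 3.92 for Sp5 and 2.93 for Wnt3 among Wnt and streak genes, with 1.96 for Mixl1, 1.41 for Hand1, 2.29 for Msx1 and 2.49 for Fgf5. They were 3.15 for Gbp2b, 2.98 for Gbp2, 2.69 for Gbp3, 3.05 for Psmb8, 3.75 for Irf2 and 1.09 for B2m among interferon genes. Among actin and matrix genes they were 2.97 for Acta1, 2.65 for Thbs1, 2.5 for Tagln, 2.43 for Ccn1, 1.07 for Ccn2 and 1.35 for Cdh2. The others were 2.86 for Fst, 2.82 for Ghr, 2.53 for Nefm, 2.45 for Igfbp3, 2.18 for Krt19, 1.63 for Krt18, 2 for Zfp608, 1.42 for Dusp4, 1.26 for Nes, 1.25 for RLTR1B-int, 2.99 for Airn, 1.23 for Plagl1, 0.64 for Cdkn1a and 0.6 for Peg3. The 1 negative value was -0.94 for Otx2. With a replicate block 32 of the 34 passed. Mixl1 (adjusted p = 0.0115) and Airn (adjusted p = 0.0105, both by edgeR's interaction test) did not. Another 27 named features passed with the block, Dnmt3a, Fgf8, Grb10 and Ccn4 among them. The 24 h and 96 h cultures are separate experiments, so time in culture and experiment cannot be told apart.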

How the results depend on the processing

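Each design of 3 against 3 cultures of 1 clone per genotype limits the result to these lines. The 3430 DE features at 24 h became 6110 with no fold cutoff and 1291 with glmTreat against a 1.5-fold change, and the 2333 genes outside chromosomes 11, 14 and 15 became 4475 and 844. By glmTreat the 2830 features at 96 h became 760. The 372 features that differed between times became 620 by DESeq2 (452 more positive at 96 h, 168 more negative) and 725 with a replicate block. With the replicate block, 3482 features were DE at 24 h, 2380 outside the 3 chromosomes and 3142 at 96 h, where of 244 named features 138 kept their call, 1 lost it and 7 gained it. Leaving out each library in turn gave 2869 to 3355 at 24 h, 1873 to 2259 outside the 3 chromosomes, 2214 to 2791 at 96 h and 231 to 528 for the difference between times, the lowest without Ctrl replicate 1 of 24 h; without Ctrl MCM2-2A replicate 3 of 96 h it was 234. Of 3755 values of named features under alternatives, 3618 kept direction and side of the threshold, 122 lost the call, 15 gained it and 0 changed the direction of a call. Scalings moved the median of all features by -0.01 to 0.03. Standard errors of named features reached 0.696 (Iigp1, near 1 CPM in Ctrl), so small differences of such genes were not detectable at this depth.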

Other observations

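Beside the lists below, 9.98% of all features were higher and 9.11% lower at 24 h. Of 21 tested p53 target genes 6 were higher and 0 lower at 24 h, with a median of 0.27, and 12 were higher at 96 h. Pmaip1 (1.15) and Ei24 (0.88) had the largest gains, while the classical targets Cdkn1a (-0.07) and Mdm2 (0.08) were not DE at 24 h and were DE and higher at 96 h (0.59 and 0.63). Of 25 glycolysis and hypoxia genes 6 were higher and 0 lower, with a median of 0.39. Car9, a carbonic anhydrase induced by hypoxia (1.78), Pdk1 (0.82) and Ldha (0.78) had the largest gains, and Ldha rose from 573, 583 and 501 CPM to 1042, 894 and 913 CPM. Car9 was scarce, with means of 0.308 CPM in Ctrl and 1.05 CPM in Ctrl MCM2-2A when all groups of the 24 h experiment were scaled together. Nupr1 (1.42), Ddit4 (1.38) and Aldh1l2 (0.78) were higher among 18 ATF4 targets, and 0 were lower. Of 377 zinc finger genes of the Zfp series 14 were higher and 49 lower, with a median of -0.18. The share that was DE was near the 19.1% of all features. Of the lower ones, 40 lie outside chromosomes 11, 14 and 15.

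Of 380 windows of 5 Mb with at least 10 tested genes outside chromosomes 11, 14, 15 and Y, 3 had a median over 0.5 in size. That of chromosome 6 between 90 and 95 Mb (-0.80) holds most of the stretch beside Mcm2. That of chromosome 2 between 10 and 15 Mb (0.81) holds Sfmbt2, an imprinted gene that rose from 114, 130 and 133 CPM to 192, 238 and 224 CPM, with a run of low-count miRNA entries inside it, and its median at 96 h was -0.02. That of chromosome 12 between 25 and 30 Mb (-0.56) holds 11 genes, 4 of them lower.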
